A study of Mus musculus with 34 samples.

Results

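Penk, Cck, Tac1 and Vip encode the precursors of 4 neuropeptides, and their RNA was followed in the neocortex and the hippocampus of young male mice after repeated injections of saline, kainate or nicotine. They are 4 of the 8251 genes named on these Affymetrix arrays. All probe sets whose annotation held one of these symbols and no other were taken, which gave 6: 3 for Penk and 1 each for Cck, Tac1 and Vip. The main Penk probe set was chosen by its mean log2(signal + 16) over all 34 arrays, the highest of the 3 (11.57, against 10.29 and 5.35), so that its overall level follows from the choice and was not tested.

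Each mouse received 3 intraperitoneal injections 2 h apart at postnatal day 23, and brains were taken at postnatal day 30. Kainate, which drives ionotropic glutamate receptors and causes seizures, was dosed at 15 mg/kg, and 5 surviving mice were sampled. Nicotine, which opens nicotinic acetylcholine receptors, was dosed at 10 mg/kg (6 mice), and 6 control mice received saline. All groups therefore shared the handling and the repeated injections, and both drug groups hold survivors only. The labels name no strain, genotype change or transgene. Each region gave 17 arrays, and the labels do not say which hippocampal and neocortical arrays share a mouse.

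Neuropeptides are cut from larger precursors inside dense-core vesicles, are released during sustained firing and act on G protein-coupled receptors. In the cortex and the hippocampus GABAergic interneurons are among the cells that make them. Cck is also made by many excitatory neurons, and Penk by dentate granule cells, where it is a well-known activity-responsive gene. Penk gives the enkephalins, ligands of opioid receptors. Cck gives cholecystokinin, which acts through Cckar and Cckbr. Tac1 gives substance P and neurokinin A, ligands of the tachykinin receptors, and Vip gives vasoactive intestinal peptide, which marks a class of interneurons that mainly inhibit other interneurons.

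The start sites of these genes are known for CRE-like elements, through which cAMP-responsive and calcium-responsive transcription factors act, so the sequence before the start is shown for the 3 members matched in the RefSeq promoter table (Cck, Tac1 and Vip, build GRCm38.p6). Capitals mark matches to TGACG, the half-site of the consensus CRE, on either strand, and to TGCGTCA, a variant CRE whose last 5 letters are the opposite strand of TGACG, so each TGCGTCA also holds a TGACG match. The Cck stretch is chr9:121495695-121495944 on the minus strand, the Tac1 stretch chr6:7554811-7555060 on the plus strand and the Vip stretch chr10:5638968-5639192 on the plus strand.
Cck: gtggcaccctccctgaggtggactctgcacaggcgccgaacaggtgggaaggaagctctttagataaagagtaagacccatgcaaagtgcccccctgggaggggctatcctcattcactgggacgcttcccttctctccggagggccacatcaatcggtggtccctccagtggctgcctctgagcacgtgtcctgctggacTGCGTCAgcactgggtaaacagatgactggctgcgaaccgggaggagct
Tac1: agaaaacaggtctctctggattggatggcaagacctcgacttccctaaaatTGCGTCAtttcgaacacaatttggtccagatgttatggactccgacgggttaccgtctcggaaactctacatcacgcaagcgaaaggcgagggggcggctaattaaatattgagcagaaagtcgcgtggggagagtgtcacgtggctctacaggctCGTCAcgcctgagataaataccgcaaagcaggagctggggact
Vip: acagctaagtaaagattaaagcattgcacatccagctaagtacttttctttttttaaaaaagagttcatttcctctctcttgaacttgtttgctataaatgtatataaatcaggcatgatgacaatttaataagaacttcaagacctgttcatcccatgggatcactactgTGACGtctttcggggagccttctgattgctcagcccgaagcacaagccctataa
The Cck and Tac1 stretches end at the start site of the table, and the Vip stretch ends 25 bases before it, where the annotated gene begins. Counted back from the end of the printed stretch, TGCGTCA began at base 49 in Cck and at base 199 in Tac1, the further TGACG match of Tac1 lay at base 43 on the opposite strand, and that of Vip began at base 54, which is base 79 from its start site. TGACG was present within the 250 bases before the start of 17.8% of 32851 promoters in the table and TGCGTCA in 1.75%. The AP-1 motif TGACTCA, searched on both strands, had no match in these 3 stretches and was present in 4.46% of the promoters. These matches describe letters in the sequence, and the arrays do not measure binding there.

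Values are signal on the linear scale of the deposited table. Each array had been scaled to about the same trimmed mean (1000.53 to 1000.62), and array medians ran from 375.75 to 438.6. In the hippocampus the medians were 380.65 to 390.9 with saline and 403.1 to 438.6 with kainate. As a check of the region labels, of 5 markers of dentate granule cells Prox1 and Dsp were higher in the saline hippocampus (log2 difference 1.62 and 2.81), Npnt was lower (-0.63), and Calb1 and Pdyn were not called. Differences are log2 fold changes on log2(signal + 16) with the standard error (SE), and a gene was called at a limma p adjusted over all 8695 probe sets tested of under 0.05. The main probe sets of the 4 genes and the brighter of the other Penk probe sets passed the filter on low values, and the dimmest Penk probe set did not.

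**Figure D1:**
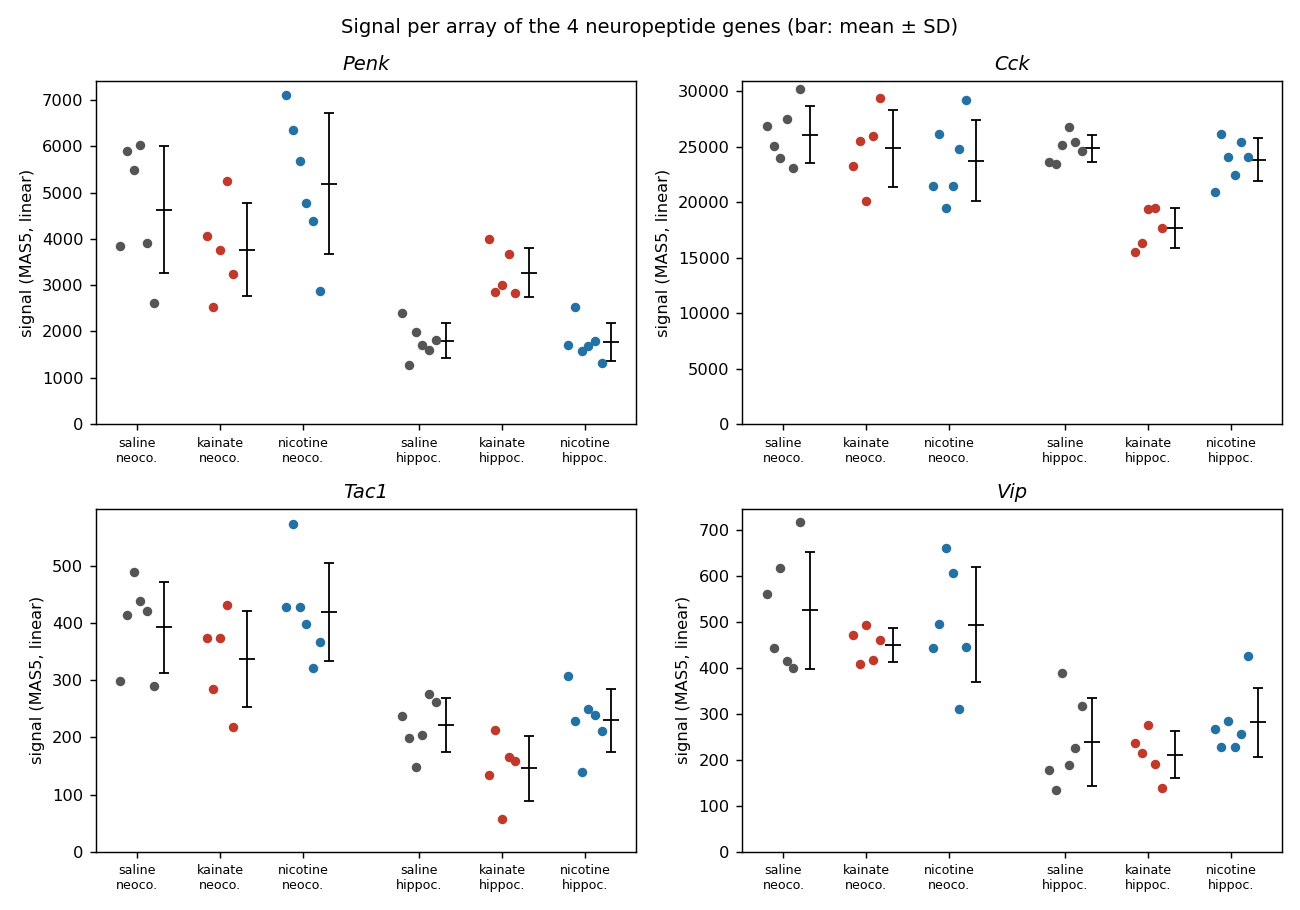
Signal of Penk, Cck, Tac1 and Vip (y axis, linear MAS5 signal) in each array of the 6 groups (x axis), with 1 point per array and a bar for mean ± SD. The kainate hippocampus stands above both other hippocampal groups for Penk (2830.2 to 3986.4) and below them for Cck (15498.3 to 19455.7), while Tac1 and Vip were lower in the hippocampus than in the neocortex with saline.

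In the hippocampus 1 week after kainate, Penk rose 1.83-fold and Cck fell by 0.50 on the log2 scale (1.41-fold lower), whereas Tac1 and Vip did not pass the test. The question of this comparison is how hippocampal RNA differs a week after the drug. Of the 4 members 1 was called higher, where 1.84% of all probe sets tested were called higher, and 1 was called lower, where 0.955% were. These directions and calls were known from earlier results when the 4 genes were chosen, so the counts are a description.

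Penk, the enkephalin precursor, read 3986.4, 2848.2, 3009.8, 3666.5 and 2830.2 in the 5 kainate hippocampi. In the 6 saline hippocampi the lowest array was 1275.1, the median 1755.55 and the highest 2391.2. Every kainate array lay above every saline array, which held for 2.31% of the probe sets tested. The group means were 3268 ± 527 (SD, n = 5) and 1796 ± 376 (SD, n = 6), and the log2 difference was 0.87 ± 0.16 (SE, 95% interval 0.54 to 1.20, adjusted p = 0.001838).

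The second Penk probe set, 94517_r_at, gave a smaller difference with wide spread. It read 1661 ± 545 (SD, n = 5) with kainate and 1231 ± 345 (SD, n = 6) with saline in the hippocampus. The groups overlapped, and the log2 difference of 0.40 ± 0.26 (SE, 95% interval -0.15 to 0.95) was not called (adjusted p = 0.5339). The main probe set, 94516_f_at, carries the suffix that Affymetrix gives to probes shared with a sequence family, and the suffix of the other marks probes chosen under relaxed rules. The third, 161164_r_at, had group means of 16.95 to 59.48 across all 6 groups and was not tested.

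**Figure D2:**
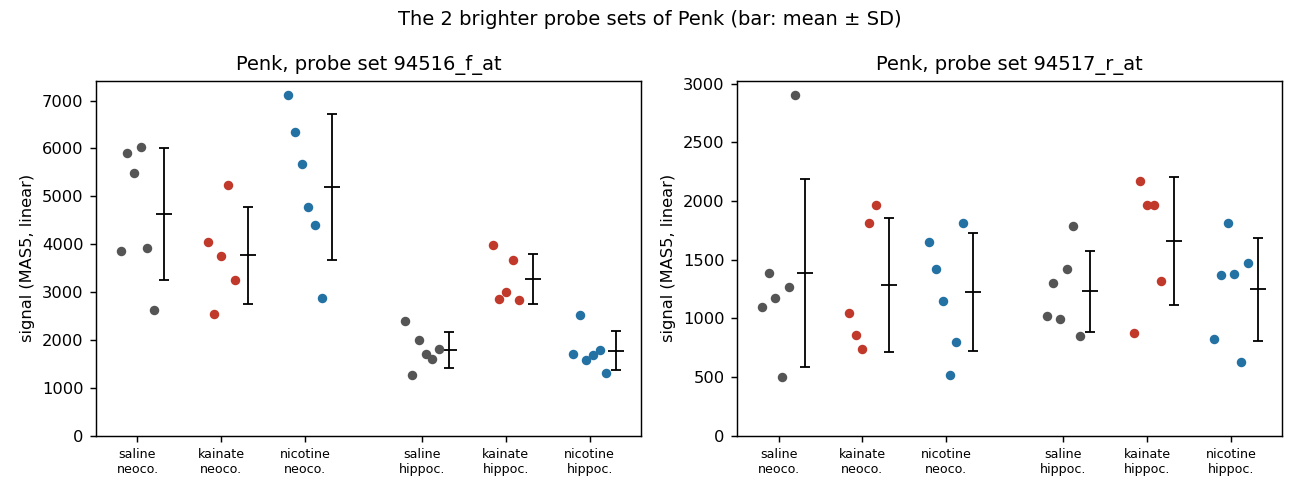
Linear MAS5 signal (y axis) of the 2 brighter Penk probe sets in each array of the 6 groups (x axis), with 1 point per array and a bar for mean ± SD. Probe set 94516_f_at separates the kainate hippocampus from the saline hippocampus, and 94517_r_at shows overlapping groups throughout, with 1 saline neocortex array at 2903.6.

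Cck, the cholecystokinin precursor, read 15498.3, 16324.1, 19370.9, 19455.7 and 17666.1 in the kainate hippocampi. The saline hippocampi ran from 23431.9 through a median of 24898.15 to 26764.5. Every kainate array lay below every saline array, which held for 1.18% of the probe sets tested. The means were 17663 ± 1775 (SD, n = 5) and 24835 ± 1230 (SD, n = 6), and the log2 difference was -0.50 ± 0.07 (SE, 95% interval -0.65 to -0.34, adjusted p = 0.0002502).

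Tac1, the tachykinin precursor, read 133.9, 213.2, 57.2, 165.6 and 158.9 in the kainate hippocampi against 147.9 (lowest), 220.6 (median) and 276.4 (highest) with saline. The groups overlapped, and 1 kainate array, replicate 3, was far below the rest. The log2 difference of -0.62 ± 0.28 (SE, 95% interval -1.21 to -0.03, unadjusted p = 0.04093) did not pass the adjusted threshold (adjusted p = 0.3218), and without kainate replicate 3 it was -0.36. Vip, the precursor of vasoactive intestinal peptide, read 235.7, 214.1, 276.1, 192.1 and 137.8 with kainate. Saline arrays ran from 133.7 through a median of 207.95 to 390, so that the kainate range lay inside the saline range. The log2 difference for Vip was -0.12 ± 0.26 (SE, 95% interval -0.67 to 0.43, adjusted p = 0.8902), which leaves changes of either sign within the interval.

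Arrays were also sorted into 4 clusters by the levels of their 9 hybridisation control probe sets, a technical grouping that the labels do not name. Within the 3 clusters that hold hippocampal arrays of both groups, the Penk difference was 0.95 (3 kainate, 3 saline arrays), 0.73 (1 and 1) and 0.73 (1 and 2) on the log2 scale. The Cck difference in the same clusters was -0.45, -0.61 and -0.50. Kainate and saline arrays did not overlap for Penk and Cck, so any split of the arrays keeps these signs. The clusters therefore add no support for the direction of either gene. Tac1, whose groups overlapped, gave -0.45, -0.76 and -0.70. Vip did not keep 1 sign, with 0.06, 0.37 and -0.89.

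Among 15 other neuropeptide precursors tested in the same comparison, 2 were called lower, where 0.955% of all probe sets were, and limma called 0 higher. Sst, which encodes somatostatin, fell from 10670 to 6233 (log2 difference -0.77 ± 0.09 SE, adjusted p = 1.155e-05). Cort, which encodes the related peptide cortistatin, fell from 492.0 to 222.2 (-1.19 ± 0.24 SE, adjusted p = 0.005403). The median log2 difference of the 15 was 0.17, beside 0.01 for all probe sets tested. Npy, the neuropeptide Y precursor, had a log2 difference of 0.31 ± 0.09 (SE) and was not called (adjusted p = 0.05675). Pdyn, the precursor of the opioid dynorphins, had one of 0.01 ± 0.23 (SE, adjusted p = 0.9928).

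**Figure D3:**
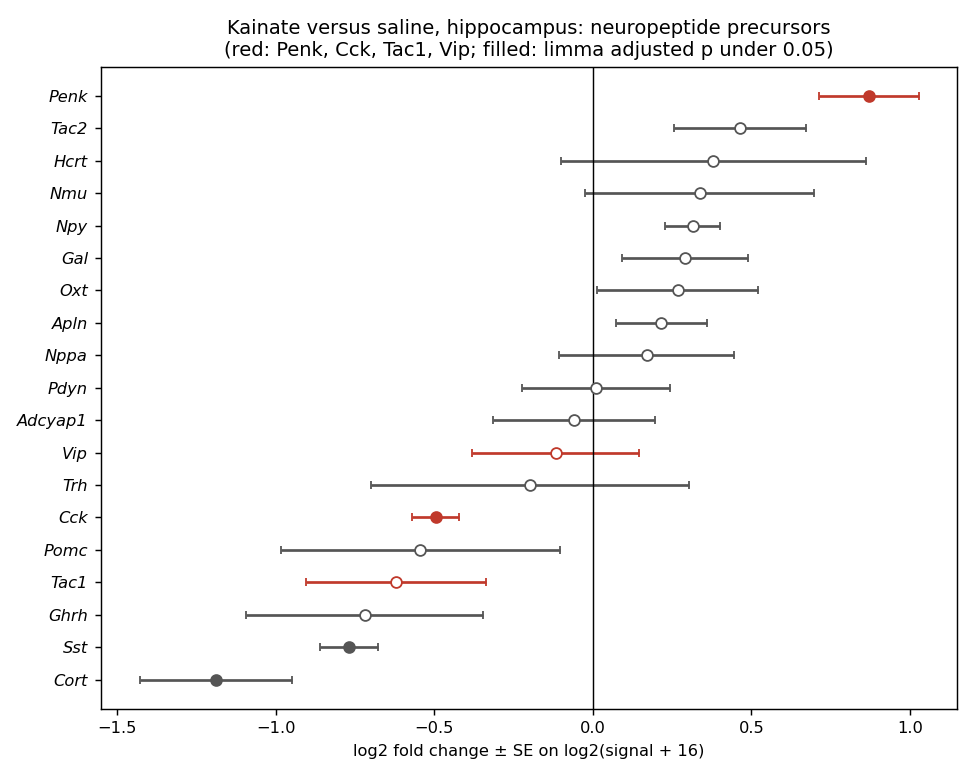
Log2 fold change between kainate and saline in the hippocampus (x axis, ± SE) for the 4 members in red and the 15 other neuropeptide precursors tested in grey (y axis). Filled points passed an adjusted limma p of 0.05, which were Penk above 0 and Cck, Sst and Cort below it.

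Of 11 listed receptors for the members' peptides 10 were measured and 4 tested, and limma called 0 of them. The opioid receptors Oprd1, Oprm1 and Oprk1, together with Cckar, Tacr1 and Vipr2, had a mean over the hippocampal arrays under the filter level and were not tested. Cckbr, the main cholecystokinin receptor of the brain, had a log2 difference of 0.12 ± 0.14 (SE, adjusted p = 0.7697), and Vipr1, a receptor of the Vip peptide, one of 0.36 ± 0.39 (SE, adjusted p = 0.7419). None of the 17 tested genes for precursor processing and dense-core vesicles was called (median -0.04), nor any of 11 tested peptide-degrading enzymes (median 0.17). Over all 8695 probe sets of this comparison limma called 243, and 1235 had an unadjusted p under 0.05.

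Markers of several cell types moved in the same kainate hippocampi. All 9 microglial markers rose, with a summed signal of 14254.6 to 15274.4 with saline and 37849.1 to 59643.3 with kainate. Of 5 astrocyte markers 3 rose (summed signal 15774.7 to 19541.8, then 33635.3 to 45013.7). Of 15 interneuron markers other than the members 3 fell, Slc32a1, Sst and Cort. The summed signal of the 15 was 34952 to 38915.1 with saline and 28564.4 to 32886.8 with kainate. That sum is on the linear scale and holds the bright Sst, whose fall is given above. The median log2 difference of the 15 was -0.13, beside 0.01 for all probe sets tested. Of 5 excitatory neuron markers 0 were called by limma, with a median log2 difference of -0.28 (summed signal 18211.2 to 27120.9, then 17475.3 to 19867.4). Of 5 dentate granule cell markers 1, Calb1, fell (summed signal 4315 to 4986.2, then 3115.1 to 4030.8). Of 6 immediate early genes, which neurons induce on activity, Egr1 and Nr4a1 fell (median of the 6 -0.57, summed signal 8419.1 to 11059.9, then 5805.1 to 7934.8). Markers of the striatum, thalamus, hypothalamus and amygdala, and choroid plexus held 0 calls by limma among 2, 5, 5 and 3 tested. Their part in the Penk and Cck results was not tested, and in whole tissue fewer cells of a type and less RNA per cell cannot be told apart.

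In the neocortex the same drug and week gave no call for any of the 4 genes, where limma called 0.0115% of probe sets, 1 of 8695, and 484 had an unadjusted p under 0.05. Penk read 4050.7, 2532.3, 3761.8, 5243.5 and 3243 with kainate and from 2619.7 through 4704.05 to 6020.1 with saline (log2 difference -0.28 ± 0.23 SE, 95% interval -0.76 to 0.20, adjusted p = 0.9065). Cck read 23286.1, 25534.7, 20052.5, 25932 and 29370 with kainate and from 23042.3 through 25919.6 to 30172.5 with saline (-0.08 ± 0.11 SE, 95% interval -0.30 to 0.15, adjusted p = 0.9524). The ranges of both genes overlapped. Tac1 had a log2 difference of -0.22 ± 0.20 (SE, 95% interval -0.63 to 0.19, adjusted p = 0.9183) and Vip one of -0.19 ± 0.19 (SE, 95% interval -0.57 to 0.20, adjusted p = 0.9239). None of the tested receptors, processing genes, degrading enzymes or other precursors was called here.

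1 neocortical array of each treatment, saline replicate 6, kainate replicate 5 and nicotine replicate 6, fell in a control cluster of their own. Cck was the highest of its group in each of these arrays, at 30172.5, 29370 and 29212. Penk was the lowest of its group there with saline and nicotine, at 2619.7 and 2866.9. The part of the hybridisation controls in these values was not tested.

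Whether the kainate difference itself was unlike between the regions was tested as an interaction. For Penk the hippocampal minus the neocortical difference was 1.15 ± 0.30 (log2, SE, 95% interval 0.55 to 1.75) and was not called (unadjusted p = 0.0004288, adjusted p = 0.05179). In this comparison 0.794% of probe sets were called. The Penk term was called with treatment and replicate number together as a block (adjusted p = 0.02214). That block takes same-numbered arrays of both regions as 1 mouse, which the labels do not give. The term was also called with the control clusters as a block (0.03506), with array weights (0.008757) and with a filter at the 50th percentile (0.04092). It was called too when saline neocortex replicate 6 (adjusted p = 0.009094), kainate neocortex replicate 4 (0.02417) or saline hippocampus replicate 1 (0.03234) was left out. These settings were 4 of the 11 alternatives and 3 of the 22 fits without 1 array, and the Penk term was not called in the others. Without 1 array the limma adjusted p ran up to 0.1403. The second Penk probe set, 94517_r_at, gave a term of 0.44 ± 0.48 (SE, adjusted p = 0.8327). For Cck the term was -0.42 ± 0.13 (SE, adjusted p = 0.1989), for Tac1 -0.40 ± 0.33 (SE, adjusted p = 0.7741) and for Vip 0.07 ± 0.32 (SE, adjusted p = 0.9644). A difference in the kainate effect between the regions was therefore not called for any of the 4 genes.

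Nicotine gave no call among the 4 genes in either region. Limma called 0% of probe sets in the hippocampus and 0% in the neocortex, with 504 and 835 at an unadjusted p under 0.05. In the hippocampus Penk read 1315.5 (lowest), 1697.85 (median) and 2529.4 (highest) with nicotine, and the log2 difference from saline was -0.02 ± 0.15 (SE, 95% interval -0.33 to 0.29). Cck read 20897.2, 24046.45 and 26120 in the same order, with a difference of -0.06 ± 0.07 (SE, 95% interval -0.21 to 0.08). Both ranges overlapped those of saline. Tac1 ran from 140.2 through 234.25 to 307.8 with nicotine and Vip from 227.3 through 261.9 to 426.7. Tac1 differed by 0.04 ± 0.27 (SE, 95% interval -0.52 to 0.61) and Vip by 0.27 ± 0.25 (SE, 95% interval -0.25 to 0.79), so that a Vip change of moderate size would not have been detectable. In the nicotine neocortex Penk ran from 2866.9 through a median of 5224.1 to 7115.4, Cck from 19477.1 through 23103.65 to 29212, Tac1 from 321.1 through 412.7 to 574.1 and Vip from 311.1 through 471.2 to 660.8. Each of these ranges overlapped that of saline. The log2 differences there were 0.17 ± 0.22 for Penk, -0.14 ± 0.10 for Cck, 0.09 ± 0.19 for Tac1 and -0.09 ± 0.18 for Vip (SE), with adjusted p-values of 0.6505 to 0.8921. The nicotine difference did not differ between the regions by a called amount for any of them (adjusted p of at least 0.9944), where limma called 0% of probe sets and 328 had an unadjusted p under 0.05. None of the tested receptors, processing genes, degrading enzymes or other precursors was called with nicotine in either region. In the neocortex, saline replicates 1 to 3 and nicotine replicates 1 to 3 fell in different control clusters. Neither of these clusters held neocortical arrays of both groups. Within the clusters that did, with 2 and 1 arrays of each group, Penk differed by -0.08 and 0.13 and Cck by -0.13 and -0.05. Tac1 differed by -0.26 and 0.32 there and Vip by 0.09 and -0.67.

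Set directly against each other, the drugs differed for Penk and Cck in the hippocampus. This comparison shares its kainate arrays with the comparison against saline, so its values are given beside those and add no independent support. Penk was higher with kainate than with nicotine by 0.89 ± 0.16 (log2, SE, 95% interval 0.57 to 1.22, adjusted p = 0.001407), and Cck was lower by a log2 difference of -0.43 ± 0.07 (SE, 95% interval -0.59 to -0.28, adjusted p = 0.001115). All kainate arrays lay above all nicotine arrays for Penk, as for 2.27% of probe sets, and below them for Cck, as for 0.656%. Limma called 2.04% higher and 0.380% lower. Tac1 (-0.66 ± 0.28 SE, adjusted p = 0.3649) and Vip (-0.39 ± 0.26 SE, adjusted p = 0.6855) were not called. Among the other precursors Sst and Cort were again lower, and Npy was higher with kainate by 0.34 ± 0.09 (log2, SE, adjusted p = 0.03797).

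In the neocortex no member differed by a called amount between the drugs, where 0.0345% of probe sets were called. The Penk difference there was -0.45 ± 0.23 (log2, SE, unadjusted p = 0.06769, adjusted p = 0.9984). Within clusters of control probe sets it was -1.04 (2 kainate, 3 nicotine arrays), 0.20 (1 and 2) and 0.18 (1 and 1), so that its sign was not the same in each.

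**Figure D4:**
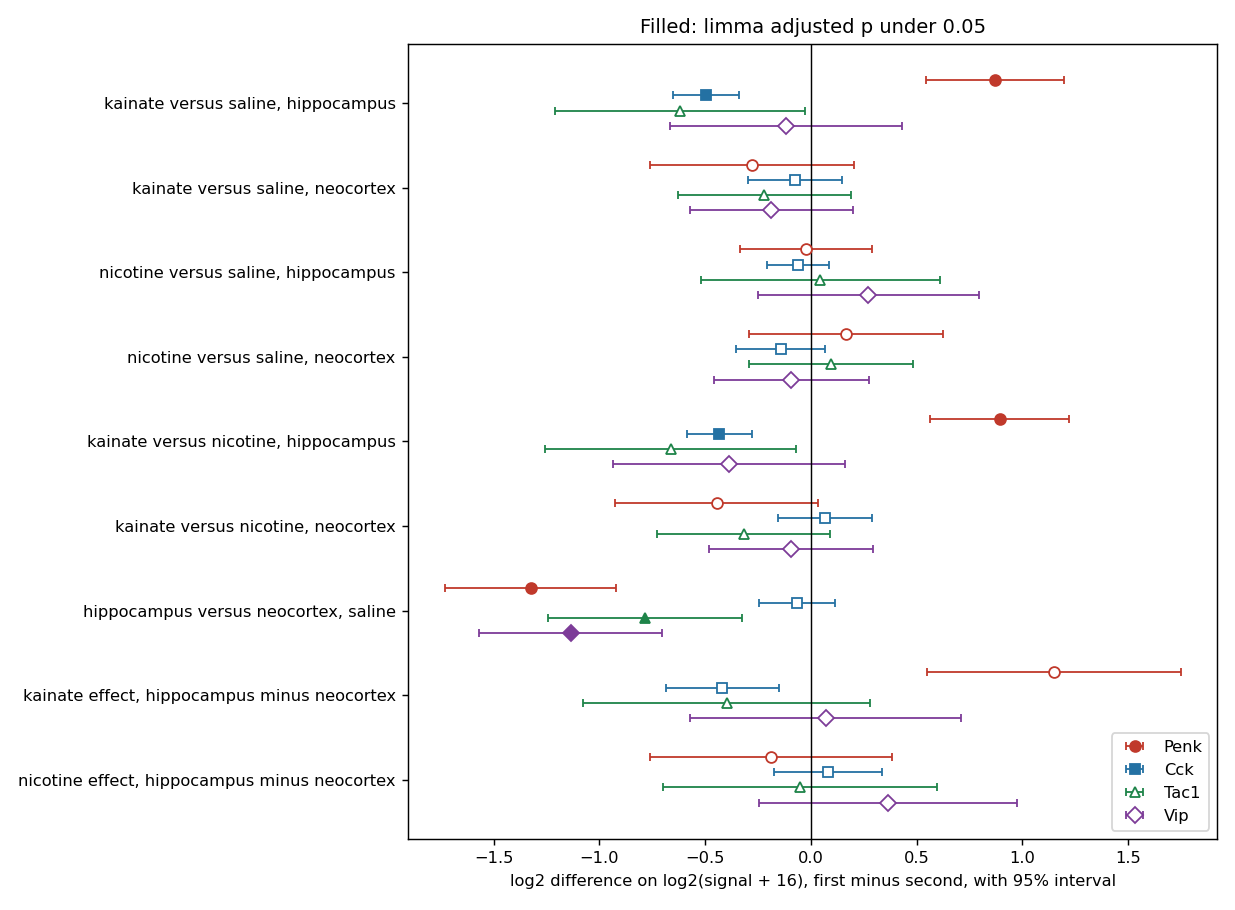
Log2 differences with 95% intervals (x axis) of Penk, Cck, Tac1 and Vip in the 9 comparisons (y axis), first group minus second. Filled symbols were called at an adjusted limma p under 0.05, which are Penk and Cck in both hippocampal comparisons with kainate, and Penk, Tac1 and Vip between the regions with saline.

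Between the regions of saline mice, 3 of the 4 genes were lower in the hippocampus and Cck was not called, where limma called 5.19% of probe sets lower and 5.36% higher. Penk ran from 1275.1 to 2391.2 in the hippocampus and from 2619.7 to 6020.1 in the neocortex, a difference of -1.33 ± 0.20 (log2, SE, 95% interval -1.73 to -0.92, adjusted p = 6.296e-06), or 2.51-fold. Vip ran from 133.7 to 390 and from 400.7 to 717.7, a difference of -1.14 ± 0.21 (log2, SE, 95% interval -1.57 to -0.70, adjusted p = 0.0001932), or 2.20-fold. Tac1 ran from 147.9 to 276.4 and from 290.5 to 489.9, a difference of -0.79 ± 0.23 (log2, SE, 95% interval -1.24 to -0.33, adjusted p = 0.0181), or 1.72-fold. No hippocampal array reached a neocortical one for any of these 3 genes, as for 2.93% of probe sets. For Cck the difference was -0.07 ± 0.09 (SE, 95% interval -0.25 to 0.11, adjusted p = 0.7391).

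The regional difference of Penk rests on its main probe set, since 94517_r_at gave -0.03 ± 0.32 (log2, SE, adjusted p = 0.9713). The Tac1 call was lost without saline neocortex replicate 3 (adjusted p = 0.05241) or saline hippocampus replicate 3 (adjusted p = 0.05543) and after quantile normalization (adjusted p = 0.05173). It was also lost with treatment and replicate number as a block (adjusted p = 0.05179), which takes same-numbered arrays of both regions as 1 mouse. Penk and Tac1 are also abundant in the striatum, which lies under the neocortex. Of 15 other striatal markers 5 were measured, and 3 of these, Rgs9, Six3 and Isl1, were below the filter level in every group. Their summed signal ran from 3818.2 to 5598 in the saline neocortex and from 3408.9 to 4435.6 in the saline hippocampus. Only Pde1b, a calcium-dependent phosphodiesterase, was called lower in the hippocampus (-0.31 ± 0.09 SE, adjusted p = 0.02193), and the part of striatal tissue in the Penk and Tac1 results was not tested.

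Other marker lists also differed between the saline regions. Of 6 immediate early genes 5 were lower in the hippocampus (median -1.05, summed signal 15797.6 to 21633.7 in the neocortex and 8419.1 to 11059.9 in the hippocampus). Of 5 excitatory neuron markers 2 were higher and 3 lower (median -0.53, summed signal 27599.9 to 35475 and 18211.2 to 27120.9). Of 15 interneuron markers 2 were higher and 2 lower (summed signal 40986.5 to 46255.4 and 34952 to 38915.1). Astrocyte markers held 2 higher of 5, thalamic markers 2 higher and 1 lower of 5, and choroid plexus markers 1 higher of 2 tested. Limma called 0 of 9 microglial markers and 0 of 5 markers of the hypothalamus and amygdala. Their part in the regional results was not tested.

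Among the related genes, Cckbr was lower in the saline hippocampus, at 1383 against 3656 (log2 difference -1.38 ± 0.14 SE, adjusted p = 1.097e-09), and it was the 1 receptor called of 4 tested. Of 16 other precursors 3 were lower, Npy (-1.39 ± 0.08 SE), Adcyap1, which encodes the Vip-related peptide PACAP (-1.30 ± 0.24 SE), and Tac2, the neurokinin B precursor (-0.67 ± 0.19 SE), and 0 were higher. Of 17 processing and vesicle genes 4 were lower and 1 higher, with Pcsk1, a convertase that cuts neuropeptide precursors, the largest at -0.99 ± 0.23 (SE, adjusted p = 0.002243). Tpst1, which sulfates tyrosines, was higher by 0.46 ± 0.11 (SE, adjusted p = 0.002522). Of 11 degrading enzymes Ece1 was lower (-0.67 ± 0.10 SE) and Ace higher (1.07 ± 0.34 SE).

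Ordered by group mean, Penk was lowest in the nicotine hippocampus (1770 ± 407, SD, n = 6), then the saline hippocampus, the kainate hippocampus, the kainate neocortex, the saline neocortex and the nicotine neocortex (5194 ± 1515, SD, n = 6). The ranges of neighbours in this order overlapped except between the saline and the kainate hippocampus. The kainate hippocampus thus overlapped the kainate neocortex (3268 ± 527 and 3766 ± 1007, SD, n = 5 each). For Cck the kainate hippocampus was lowest and apart from the next group, the nicotine neocortex (23740 ± 3618, SD, n = 6), and the other 5 groups overlapped their neighbours. Tac1 and Vip both ran from the kainate hippocampus (145.8 ± 57.2 and 211.2 ± 51.4, SD, n = 5) through the saline and nicotine hippocampus to the neocortical groups, and all neighbours overlapped. With quantile normalization or median centring the kainate hippocampus stayed lowest for Cck, Tac1 and Vip. The saline and nicotine hippocampus then changed places for Tac1 (229.3 and 226.3 with quantile normalization), and the group next above the kainate hippocampus for Cck became the saline hippocampus with quantile normalization and the nicotine hippocampus with median centring.

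Within groups, the main Penk probe set and Tac1 varied together in the neocortex. Deviations of log2 values from the group mean correlated with Pearson's r = 0.71 (permutation p = 0.00154) and Spearman's rho = 0.71 (permutation p = 0.00169) over 17 arrays, two-sided with 100000 resamples. Over the 12 relations computed (6 pairs of members in each region), the Benjamini-Hochberg adjusted values were 0.0185 and 0.0203. Without the 2 arrays farthest from the Penk median r was 0.71, and with the control clusters removed as well as the groups it was 0.54. In the hippocampus the same pair gave r = 0.06 and rho = 0.06 (permutation p = 0.815 and 0.831, adjusted 0.978 and 0.989). No other pair passed an adjusted 0.05 in either region. These p-values belong to the deviations from the group means alone. With the control clusters removed as well, Penk and Cck in the hippocampus went from r = 0.12 to 0.60, above the 0.54 of Penk and Tac1 in the neocortex. The values with clusters removed were not tested. The difference between the regions was not tested. The striatal marker sum ran from 3818.2 to 5598 over the neocortical arrays, and its part in this relation was not tested. The relation rests on the main Penk probe set, and none was computed for the second. In the neocortex the second was highest of its group in saline replicate 6 (2903.6), kainate replicate 5 (1970.5) and nicotine replicate 6 (1814.1). Tac1 was the lowest of its group in the saline and kainate arrays of these (290.5 and 218.9). In the nicotine array Tac1 read 366, between the ends of its group at 321.1 and 574.1.

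**Figure D5:**
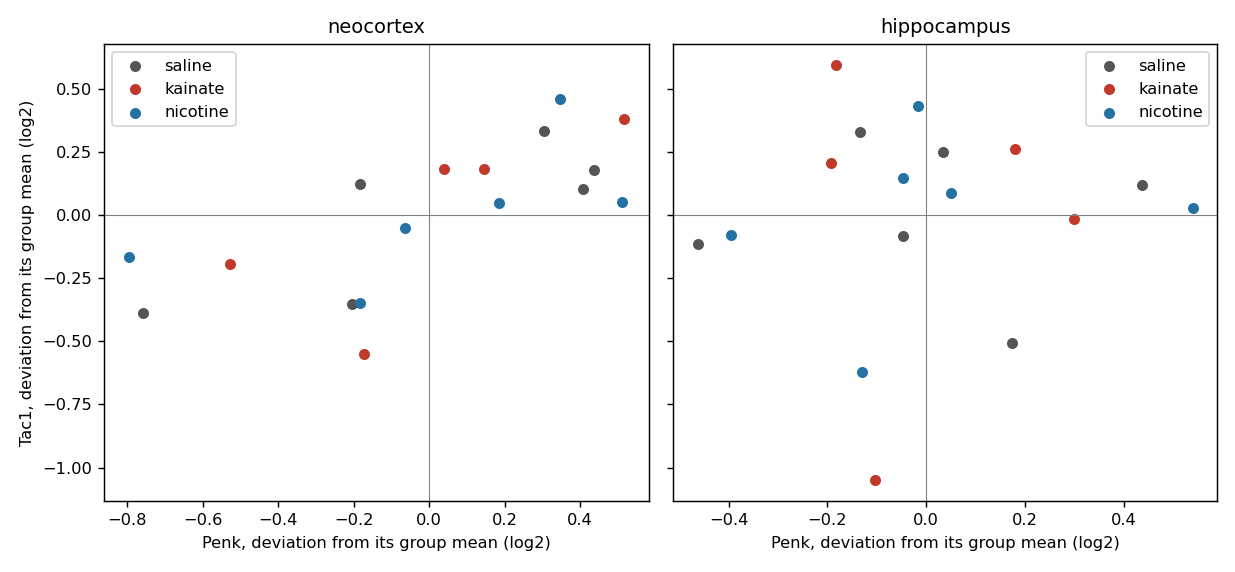
Deviation of Tac1 (y axis) against that of the main Penk probe set (x axis) from their group means on the log2 scale. There is 1 point per array coloured by treatment, in the neocortex and the hippocampus (17 arrays each). The points rise together in the neocortex (r = 0.71) and show no such slope in the hippocampus (r = 0.06).

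The probe sets whose pattern over the 34 arrays was most like that of each member were found by Pearson correlation among about 7812 candidates. These arrays share 2 regions and 1 scaling, so the values describe likeness and carry no test. For Penk they were Cux1, a transcription factor of upper cortical layers (r = 0.83), Pde1b (0.83) and Hmgb3 (0.82), and for Cck Fdps, an enzyme of isoprenoid synthesis (0.81), Sst (0.81) and Gabarapl1 (0.78). For Tac1 they were R3hdm1 (0.85), Epop (0.85) and Ttc7b (0.84), and for Vip Tnnc1 (0.86), Sncb (0.86) and Fabp3 (0.86). With the 6 group means removed, other probe sets led: Mrpl39 for Penk (0.73), Zwint for Cck (0.81), Rcan3 for Tac1 (0.75) and Snrpa1 for Vip (0.62).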

How the data were processed

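Per the labels' protocols, TRIzol RNA (12 µg a sample) was turned into biotinylated cRNA. The authors deposited signal intensity on a linear scale for 34 arrays, and the submitters' processing notes name MAS5 without its version. The 66 control probe sets were left out of 12488. Of the remaining 12422, 10833 carried 1 gene symbol, 396 several and 1193 none. Comparisons of treatments used limma 3.58.1 in R 4.3.3 (lmFit, eBayes with trend) on log2(signal + 16), which understates changes of dim genes, over the 17 arrays of a region, and regional comparisons used all 34 without a mouse block. Probe sets at or above the 30th percentile of mean level were tested, and p-values were adjusted by Benjamini-Hochberg. The fit was tested on simulated data. Plots used matplotlib 3.10.9 in Python 3.11.15. The members, lists and tests were chosen with earlier results of these data known. Named genes are the members, listed genes called in a comparison (at most the 4 largest changes each way) and the 3 most alike, and the uncalled listed genes given with values were chosen after their values were seen. Alternatives varied the pseudocount, filter, scaling, array weights, trend, blocks, arrays and Penk probe set. The number of arrays limits the precision. Deviations of same-numbered arrays correlated above 0.1 in all 5 kainate and nicotine pairs of the hippocampus (0.12 to 0.28), where the numbers were taken to pair the arrays. They did so in 2 of 5 kainate and saline pairs and 2 of 6 nicotine and saline pairs there, 6 of 16 pairs in the neocortex and 2 of 17 between regions. In the hippocampus the control clusters followed the replicate number in all 3 treatments, so a technical grouping and a pairing of arrays cannot be told apart there. No correlations of differently numbered arrays are set beside these values, which therefore do not establish a pairing.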

Additional observations from a re-analysis of the deposited data

Results flagged for a closer look

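Single arrays far from the rest of their group were looked for in 36 groups, 6 probe sets in 6 groups each, and 5 were found. The search used linear signal. A chance rate of about 1 in 20 would need normally distributed values, which linear signal need not follow, so the 5 were not set against chance. The gap to the nearest array as a share of the group's range was 0.7177 for Vip in the nicotine hippocampus, where 1 array read 426.7 and the group median was 261.9. For Penk probe set 94517_r_at it was 0.6293 in the saline neocortex, where 1 array read 2903.6. For the dimmest Penk probe set, 161164_r_at, it was 0.7504 in the kainate neocortex (highest array 146.1), 0.748 in the saline hippocampus (85.1) and 0.8599 in the kainate hippocampus (107.8), and this probe set was below the filter level and not tested. None of these is an array of the main Penk or Cck probe sets.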

How the results depend on the processing

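Of 882 recomputed values of 36 results, 838 kept their direction and side of the threshold. Penk and Cck kept their calls in both hippocampal kainate comparisons under all alternatives run, except that the second Penk probe set lost them (0.40 against saline, 0.42 against nicotine) and the regional call (-0.034). It turned the sign of Penk for nicotine in the neocortex (-0.11), for kainate against nicotine there (0.076) and for the nicotine interaction (0.091). Median centring moved the median of all probe sets for hippocampal kainate against saline from 0.01 to -0.10 and the calls from 160 higher of 243 to 129 higher of 465. Quantile normalization gave 0.010 for Cck and -0.038 for Tac1 with nicotine in the hippocampus, -0.76 for the regional Tac1 (adjusted p = 0.05173, call lost) and -0.030 for the Vip kainate interaction. Median centring gave -0.017 for hippocampal Tac1 with nicotine and -0.028 for the Vip kainate interaction. Array weights gave 0.0035 for Vip with nicotine in the neocortex, 1.29 for the Penk kainate interaction (adjusted p = 0.008757), -0.15 for that of Vip and 0.033 for the nicotine interaction of Tac1. In comparisons that use both regions the replicate block took same-numbered arrays of a treatment as 1 mouse. There it gave -0.79 for the regional Tac1 (adjusted p = 0.05179) and 1.15 for the Penk kainate interaction (adjusted p = 0.02214). Within a region the replicate block used the number alone, with 323 calls in place of 243 for hippocampal kainate against saline. In the hippocampal kainate and nicotine comparison, where the numbers were taken to pair the arrays, it gave 0.86 for Penk and -0.43 for Cck. The labels state neither the pairing of regions nor that of treatments. The replicate block changed no other call of the members. Control clusters as a block gave 1.06 for the Penk kainate interaction (adjusted p = 0.03506) and 0.072 for the nicotine interaction of Tac1, and a filter at the median gave 1.15 for the Penk kainate interaction (adjusted p = 0.04092, fewer probe sets tested). Leaving out 1 array in turn gave -0.25 to 0.033 for Vip with kainate in the hippocampus, -0.13 to 0.065 for Penk and -0.058 to 0.17 for Tac1 with nicotine there, and -0.18 to 0.028 for Vip with nicotine in the neocortex. It gave -0.86 to -0.68 for the regional Tac1, 1.02 to 1.30 for the Penk kainate interaction, -0.068 to 0.22 for that of Vip and -0.15 to 0.073 for the nicotine interaction of Tac1. Apart from the filter, the cause of these changes was not tested.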
